A study of Mus musculus with 4 samples.

Results

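Among excitatory neuron nuclei from GCLC-KO mouse cerebral cortex, 709 carried at least 4 of the 10 genes Gm2115, Ndst4, Gm47448, 2310002F09Rik, Dach1, Dcn, Slc9a2, Gm44618, Pkp2 and Gm10848, with at least 1 UMI (unique molecular identifier, counted as 1 RNA molecule) of each. They are called members here. A member also had at least 1 UMI of Slc17a7, the vesicular glutamate transporter that marks most cortical and hippocampal excitatory neurons, and none of Gad1, Gad2, Syt6 or Rspo1. Nuclei had at most 7000 detected genes and at most 1% of mitochondrial UMIs. The members made up 4.96% of 14291 excitatory nuclei (Slc17a7 present, Gad1 and Gad2 absent) and 2.32% of all 30515 nuclei that passed the filter. Because the 10 genes chose the nuclei, their levels in members are given as a description and without a test, and so is every comparison of members with the other 13582 excitatory nuclei. These nuclei were proposed as 1 type led by Gm2115, Ndst4 and Dach1. Genes outside the rule went against this, since some groups of members were high in the hippocampal genes Zbtb20 and Fibcd1, whereas others had less of these and a larger sum of upper-layer neocortical genes, although that sum was below its level in other excitatory nuclei.

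Excitatory neurons of the forebrain are divided by region and layer, and each division keeps its own set of transcription factors, adhesion molecules and receptor subunits. The pyramidal neurons of hippocampal field CA1 are known for the transcriptional repressor Zbtb20, for Fibcd1, Spink8, Wfs1 and Pou3f1, and for a high content of the AMPA receptor subunit encoded by Gria1. Neocortical neurons are instead known by layer, with Cux2 and Cux1 in upper layers, Rorb in layer IV, and Foxp2, Tbr1 and Tle4 in layer VI. The subiculum, which carries the output of CA1, is known for Fn1 in mice.

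Nuclei were prepared from cortical regions rich in rod-shaped microglia, sorted by DAPI staining and sequenced with the 10x Genomics 3′ v3.1 chemistry. Each of the 4 libraries came from 1 mouse. The 3-month group was made of libraries 3M-1 plus 3M-2, and the 6-month group of 6M-1 plus 6M-2. The sample titles give a replicate number and no batch. The batch number used below equals the replicate number at both ages. Where 4 values are listed, the younger mice come first, and replicate 1 precedes replicate 2. In all of these mice the floxed Gclc allele (C57BL/6NTac-Gclctm1a(EUCOMM)Wtsi/WtsiCnbc) was combined with CaMKII-Cre, which acts in forebrain excitatory neurons, and no mouse was treated. No wild-type library was analysed, so the comparisons below are between ages of knockout mice, or between classes of nuclei within them, and differences between ages also hold any difference in the tissue taken.

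After the filter, the libraries held 6802, 8750, 8111 and 6852 nuclei, with totals of 63194878, 62574289, 65894316 and 59262228 UMIs. Between 12 and 19 barcodes were shared by each pair of libraries, and 1 of the shared barcodes was a member in both of its libraries. Gclc, the gene targeted in neurons (catalytic subunit of glutamate-cysteine ligase, the rate-limiting enzyme of glutathione synthesis; chromosome 9, 77754535 to 77794485, GRCm38), had 34.6, 35.3, 34.4 and 31.2 CPM in members (UMIs summed over the class in a library and scaled to its total). In the other excitatory nuclei it had 42.7, 33.4, 34.4 and 37.0 CPM. The ranges overlapped, and the deletion itself was not measurable from 3′ counts without wild-type mice. Xist had between 1679 and 1786 CPM in members of the 4 mice.

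The genes that chose the nuclei had different functions. Ndst4 encodes an N-deacetylase/N-sulfotransferase that modifies heparan sulfate, Dach1 a transcriptional cofactor of the retinal determination network, Dcn the small proteoglycan decorin, Slc9a2 a sodium/proton exchanger and Pkp2 the desmosomal armadillo protein plakophilin 2. Gm2115 (chromosome 7, 84528954 to 84583531) is a predicted gene, as are Gm47448, Gm44618 and Gm10848. Gm10848 was detected in 94.9% of members and in 19.3% of other excitatory nuclei, and Pkp2 in 86.7% and 13.6%. Ndst4 was detected in 62.2% and 6.21%, Gm2115 in 57.3% and 2.63%, Slc9a2 in 39.5% and 1.74%, Dach1 in 37.0% and 7.41%, and Dcn in 22.0% and 2.72%. The 2 genes detected in most members were also the 2 most widespread outside them. Members were also deeper, with median depths of 16434, 14082, 14128.5 and 14401 UMIs per nucleus, against 11561, 7995.5, 10044 and 10332 UMIs in other excitatory nuclei.

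Per mouse, Gm2115 had 89.6, 33.8, 150.4 and 188 CPM in members and 2.24, 2.59, 4.16 and 6.02 CPM in other excitatory nuclei. Ndst4 had 104, 107, 219 and 228 CPM in members and 19.6, 14.1, 28.3 and 14.9 CPM elsewhere. In members, both genes were higher in each 6-month library than in each 3-month library, but in other excitatory nuclei this held for Gm2115 and not for Ndst4. Dach1 did not follow this order, with 88.1, 91.9, 101 and 34.1 CPM in members and 22.5, 20.5, 43.6 and 11.3 CPM elsewhere.

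The threshold of 4 genes cut through a continuous count: 559 excitatory nuclei without Syt6 and Rspo1 carried exactly 3 of the genes, 323 carried exactly 4, 208 carried 5, 117 carried 6, 51 carried 7 and 10 carried 8. Nuclei with exactly 3 and exactly 4 genes had similar median depths, 14013 and 14082 UMIs. Zbtb20, which the rule did not use, had 429 CPM in nuclei with exactly 3 genes, 734 CPM with exactly 4 and 1148 CPM with 5 or more. Cux2 went the other way, with 85.4, 46.4 and 9.01 CPM. These are sums over groups of nuclei, and a change in the mix of nuclei and a change within nuclei cannot be told apart from them. Wfs1 did not follow the order of Zbtb20, with 13.2, 8.85 and 10.6 CPM.

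The same threshold of 4 genes was passed by few nuclei outside the excitatory class. Of 4274 inhibitory nuclei (Gad1 or Gad2 present), 12 passed (0.281%), and of 10348 nuclei without Slc17a7, Gad1 or Gad2, 40 passed (0.387%). These nuclei were shallower than members, with median depths from 5862 to 8153 UMIs in inhibitory nuclei and from 2269 to 3020.5 UMIs in the others.

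Members were a larger share of the excitatory nuclei at 6 months than at 3 months in every pair of mice. At 3 months, members were 110 of 3221 excitatory nuclei in one mouse (3.42%, with Wilson bounds at 95% of 2.84% and 4.10%) and 85 of 4555 in the other (1.87%, bounds 1.51% and 2.30%). At 6 months they were 228 of 3291 (6.93%, bounds 6.11% and 7.85%) and 286 of 3224 (8.87%, bounds 7.94% and 9.90%). The means were 2.64% ± 1.10 at 3 months and 7.90% ± 1.37 at 6 months (SD, n = 2 mice each), a difference of 5.26 percentage points (exact two-sided permutation test, p = 0.333). With this number of mice no smaller p can be reached, so the test cannot pass 0.05. Nuclei with at least 5000 UMIs were also thinned to 5000 and the rule applied again, with shallower nuclei left out. Members were then 16 of 2349, 21 of 3086, 56 of 2362 and 106 of 2348 excitatory nuclei. These shares were 0.681%, 0.681%, 2.37% and 4.51%, a difference of 2.76 points. The intervals cover counting error only. How much of the hippocampus or of any cortical region each piece of tissue held was not recorded in the sources used here, so a change with age and a difference in dissection cannot be told apart.

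**Figure D1:**
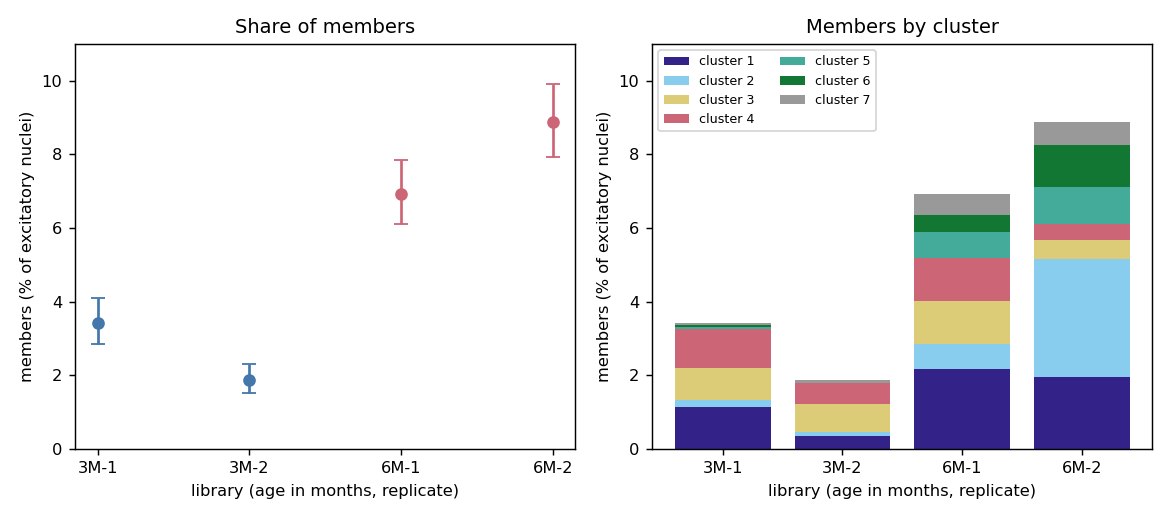
Share of members among the excitatory nuclei of each library. Left, percent of excitatory nuclei with 95% Wilson intervals (blue, 3 months; red, 6 months), where both 6-month libraries (6.93% and 8.87%) lie above both 3-month libraries (3.42% and 1.87%). Right, the same shares split into the 7 clusters of members, where clusters 1, 2 and 5 take more of the 6-month libraries whereas clusters 3 and 4 together are smallest in 6M-2.

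Summed over all members, Zbtb20 and most CA1 markers were higher than in other excitatory nuclei and most neocortical layer markers were lower. The members were not alike in this, since Zbtb20 and Fibcd1 were lower and the summed upper-layer genes higher in clusters 3 and 4 (32.4% of members) than in clusters 1, 2 and 5. Zbtb20 (chromosome 16, 42875881 to 43642602) had 647, 334, 1132 and 1167 CPM in members, against 90.0, 91.2, 189 and 155 CPM in other excitatory nuclei, a median log2 ratio of 2.71. The lowest level in members, 334 CPM, was above the highest elsewhere. Fibcd1, which encodes a membrane receptor for acetylated carbohydrates (chromosome 2, 31813290 to 31846005), had 15.8, 2.21, 20.04 and 26.1 CPM against 1.36, 0.889, 1.82 and 2.65 CPM, with a median log2 ratio of 3.38. Spink8, a Kazal-type protease inhibitor gene, had 15.8, 16.2, 19.8 and 26.7 CPM against 3.06, 5.41, 7.13 and 6.38 CPM, with a median log2 ratio of 1.84. The members of 3M-2 stood out by the lowest Zbtb20 and Fibcd1.

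Of the 5 CA1 genes listed, 4 were higher in members in all 4 mice (Fibcd1, Spink8, Wfs1 and Pou3f1), and Mpped1 was higher in 2 of 4 mice with a median log2 ratio of 0.02. Over all 9840 genes with at least 10 CPM in either class, 18.7% were higher in members in all 4 mice and 26.8% were lower, and the median log2 ratio was −0.04. Wfs1, which encodes the endoplasmic reticulum protein wolframin, had 16.8, 20.6, 6.87 and 5.79 CPM in members against 7.43, 5.91, 4.22 and 4.30 CPM, and its 3-month levels were the higher ones. Genes listed for the ventral pole of CA1 were also higher in all 4 mice (4 of the 4 at this level: Etv1, Gpc3, Nr2f2 and Htr2c). Htr2c, the serotonin receptor 2C gene, had 114, 273, 183 and 102 CPM against 55.8, 51.7, 86.3 and 62.3 CPM. Among the clusters of members, Htr2c and Nr2f2 were highest in cluster 4, Gpc3 in cluster 5 and Etv1 in cluster 6.

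Most neocortical layer genes were lower in members. Cux2, a homeobox gene of upper-layer neurons, had 37.7, 64.0, 24.1 and 9.58 CPM in members against 169, 147, 114 and 119 CPM in other excitatory nuclei, a median log2 ratio of −2.20. Foxp2, a forkhead gene of layer VI, had 6.62, 2.94, 12.6 and 7.58 CPM against 105, 88.1, 129 and 134 CPM, a median log2 ratio of −4.03. For neither gene did the classes overlap. The rule removed nuclei with Syt6 or Rspo1 from members but not from the other excitatory nuclei. There, the 1413 nuclei with Syt6 had 3476, 4005, 2917 and 3480.1 CPM of the deep-layer genes, against 1125, 1162, 1186 and 1607 CPM in all of them. The Foxp2 ratio was thus partly set by the rule. Against the 11257 other excitatory nuclei without Syt6 and Rspo1, a comparison chosen after seeing the data, the median log2 ratio was −3.24 for Foxp2, −2.22 for Cux2, −2.98 for Rorb and 2.70 for Zbtb20. Rorb, which encodes an orphan nuclear receptor, had a median log2 ratio of −3.07, and Tshz2, a zinc-finger gene that is high in retrosplenial cortex, one of −2.38. Of the upper-layer list, 3 of 5 genes were lower in all 4 mice (Cux2, Cux1 and Rorb), and of the deep-layer list 5 of 7 were lower (Tbr1, Deptor, Foxp2, Tle4 and Hs3st4) and Parm1 was higher. Over all genes, 26.8% were lower and 18.7% higher in all 4 mice. The lists for other hippocampal fields gave mixed values. The 9 CA3 genes summed to 279, 254, 340.2 and 299 CPM in members and to 384, 453, 367 and 427 CPM in other excitatory nuclei, with Cpne4 the most abundant, and Iyd of this list had 0.509, 0, 1.15 and 0.223 CPM in members. Of the 6 dentate genes, Prox1 had 0, 1.47, 1.72 and 1.34 CPM in members, while Trpc6 had 38.7, 39.0, 28.9 and 40.1 CPM. Rgs14, listed for CA2, was higher in members in all 4 mice, with 17.8, 11.03, 8.88 and 13.8 CPM against 10.0, 8.67, 4.91 and 6.95 CPM.

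**Figure D2:**
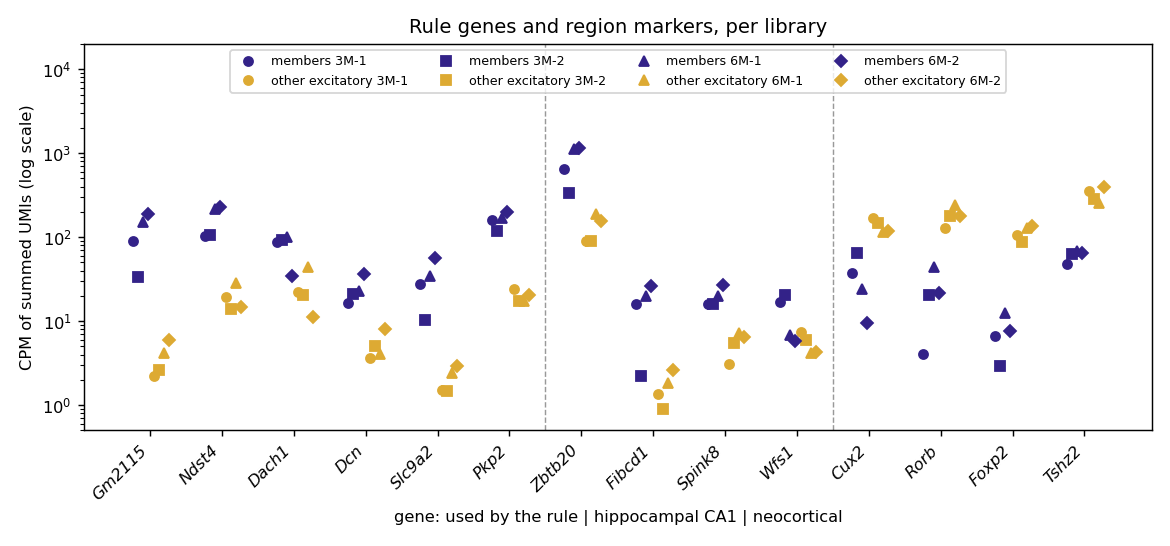
Level of rule genes and region markers in members (dark blue) and other excitatory nuclei (yellow), as CPM of the UMIs summed per library on a log axis, 1 symbol per library; a level of 0 is not drawn. The 6 genes on the left were used to choose members. Zbtb20, Fibcd1, Spink8 and Wfs1 are higher in members in each library, and Cux2, Rorb, Foxp2 and Tshz2 are lower.

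Outside the rule, the largest median log2 ratios to other excitatory nuclei among genes with at least 50 CPM belonged to Ror1 (2.93), Gm10754 (2.87), Cntnap5c (2.86), 4921539H07Rik (2.82), Zbtb20 (2.71), Cpne7 (2.28), Gm12296 (2.26), Man1a (2.24), 4930547E14Rik (2.13), AC163685.1 (2.11), Shisa6 (2.07) and Nkain3 (2.06). Ror1 encodes a receptor tyrosine kinase for Wnt5a, Cntnap5c a contactin-associated adhesion protein, Man1a a Golgi mannosidase, and Shisa6 an auxiliary subunit of AMPA receptors. Ror1 had 126, 69.1, 112 and 196 CPM in members against 14.9, 16.3, 14.9 and 25.3 CPM. Cntnap5c was the most even of these across mice, with 426, 384, 481 and 405 CPM against 77.6, 52.7, 66.8 and 43.5 CPM. The lowest ratios belonged to Foxp2, Plcb4 (−3.70), Rorb, Chrm2 (−2.84), Ptprm (−2.83), Gm15155 (−2.67), Satb1 (−2.63), Rcan2 (−2.62), Hivep1 (−2.54), Osbpl3 (−2.51), Olfm3 (−2.49) and Tshz2. Plcb4 encodes a phospholipase C that acts downstream of Gq-coupled receptors, Chrm2 the muscarinic receptor M2, and Satb1 a chromatin organizer. Plcb4 had 1.53, 5.15, 11.2 and 9.58 CPM in members against 88.7, 99.3, 105 and 86.7 CPM, and against 72.8, 87.4, 87.4 and 71.5 CPM in the nuclei without Syt6 and Rspo1. Against the latter nuclei these 12 genes were lower in 4 of 4 mice, with median log2 ratios from −3.47 (Plcb4) to −2.45 (Osbpl3). Ptprm, Olfm3 and Tshz2 were then further below 0 (−2.98, −2.53 and −2.49), and the others nearer to 0.

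To see whether the members were 1 kind of nucleus, they were clustered on genes outside the rule, with the mean of each mouse removed. This gave 7 clusters of 187, 137, 118, 112, 57, 53 and 45 nuclei. Clusters 1, 2 and 5, together 381 nuclei (53.7% of members), were high in Zbtb20, with 1908, 1158 and 2122 CPM. They were also high in Fibcd1, with 32.8, 28.9 and 60.7 CPM, and in Gm2115, with 279, 195 and 169.6 CPM. Their leading genes held only 1 of the CA1 list (Fibcd1), fewer than the 3 set for giving a name, so they are called by their numbers. Zbtb20 and Fibcd1 point to the hippocampus, but the CA1 gene Wfs1 had 18.9, 4.34 and 2.29 CPM in clusters 1, 2 and 5 and so was not high in 2 and 5. Cluster 5 stood apart from clusters 1 and 2 in other lists, with a sum of 668 CPM for the CA3 genes against 157 and 306 CPM, and of 1495 CPM for the deep-layer genes against 459 and 526 CPM. Homer3 of the CA3 list was among its leading genes. Clusters 3 and 4, together 230 nuclei (32.4%), had 272 and 235 CPM of Zbtb20, 3.93 and 1.52 CPM of Fibcd1 and 10.9 and 4.04 CPM of Gm2115.

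Dach1 and Gm2115 differed in level between the clusters. Both belong to the rule, which asks for 4 of 10 genes and so shapes how often any of them occur together, and their detection is given as a description only. Dach1 had 108 and 159.6 CPM in clusters 3 and 4, and 48.4, 15.9 and 3.44 CPM in clusters 1, 2 and 5. At least 1 UMI of Gm2115 was found in 307 of the 381 nuclei of clusters 1, 2 and 5 (80.6%) and in 21 of the 230 nuclei of clusters 3 and 4 (9.13%). For Dach1 the counts were 76 (19.9%) and 152 (66.1%). In all, 92 of 709 members (13.0%) held both Gm2115 and Dach1, and 72 (10.2%) held Gm2115, Ndst4 and Dach1 together. Ndst4 was in 55.6% of clusters 1, 2 and 5 and in 63.5% of clusters 3 and 4.

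Clusters 3 and 4 had more of the upper-layer genes in sum than clusters 1, 2 and 5, but less than other excitatory nuclei. Rasgrf2, a Ras guanine nucleotide exchange factor gene of upper layers, had 139.7 and 127 CPM there and 5.74, 22.2 and 49.3 CPM in clusters 1, 2 and 5, beside 105, 109, 106 and 83.6 CPM in other excitatory nuclei. Otof, which encodes otoferlin, had 70.7 and 146 CPM against 3.69, 16.4 and 1.15 CPM, beside 37.9, 32.3, 24.1 and 21.2 CPM in other excitatory nuclei. The other 3 genes of the list were below every library of other excitatory nuclei in both clusters, with 78.6 and 23.7 CPM of Cux2, 121 and 51.0 CPM of Cux1 and 58.1 and 12.1 CPM of Rorb. The summed level of the 5 upper-layer genes was 468 and 360.2 CPM in clusters 3 and 4, and 38.5, 75.6 and 117 CPM in clusters 1, 2 and 5, beside 613, 629.6, 671 and 546 CPM in other excitatory nuclei. Htr2c (164 and 381 CPM) and Nr2f2 (38.8 and 87.4 CPM) of the ventral CA1 list were highest in the same 2 clusters. Zbtb20 was lower there than in clusters 1, 2 and 5, but in clusters 3 and 4 together it had 197, 214, 352 and 238 CPM, above other excitatory nuclei in 4 of 4 mice. Summed over its 5 genes, that list had 634 CPM in cluster 4 but 298 CPM in cluster 3, below the 351, 433 and 435 CPM of clusters 2, 5 and 6. Genes that set cluster 3 apart from other members were led by Stard8, 1700023F02Rik and Avil, and those of cluster 4 by Ebf1, 1700018A04Rik and Vgll3. No list fixed for a cell type or region had 3 genes among the 50 leading genes of either cluster, so they were left without a name and the markers point to no single region for them.

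Cluster 6 was subiculum-like by the rule for names, with Fn1, Teddm3 and Dlk1 among its leading genes. Other lists were high in it too. Its retrosplenial genes summed to 319 CPM, against 5.33 to 114 CPM in the other clusters. In other excitatory nuclei that sum was 367, 296, 268 and 402 CPM. Its deep-layer genes summed to 1073 CPM, below only cluster 5 (1495 CPM) among the clusters. Fn1, which encodes fibronectin, had 86.9 CPM in cluster 6 and at most 0.873 CPM in the 6 other clusters. The cluster had 779.6 CPM of Ndst4 and 271 CPM of Gm2115, but 41.7 CPM of Zbtb20 and no UMI of Fibcd1. Cluster 7 had 1343 CPM of the 6 oligodendrocyte genes, against 68.0 to 116 CPM in the other clusters, and 38 of its 45 nuclei were called doublets by Scrublet. It also had 1161 CPM of Zbtb20, 21.2 CPM of Fibcd1 and 111 CPM of Gm2115. Its upper-layer genes summed to 340 CPM, beside 360.2 CPM in cluster 4. The inhibitory neuron list summed to 275 CPM in cluster 7, the highest of the clusters. Over all members, 51 nuclei (7.19%) were called doublets, and they were kept unless stated otherwise.

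**Figure D3:**
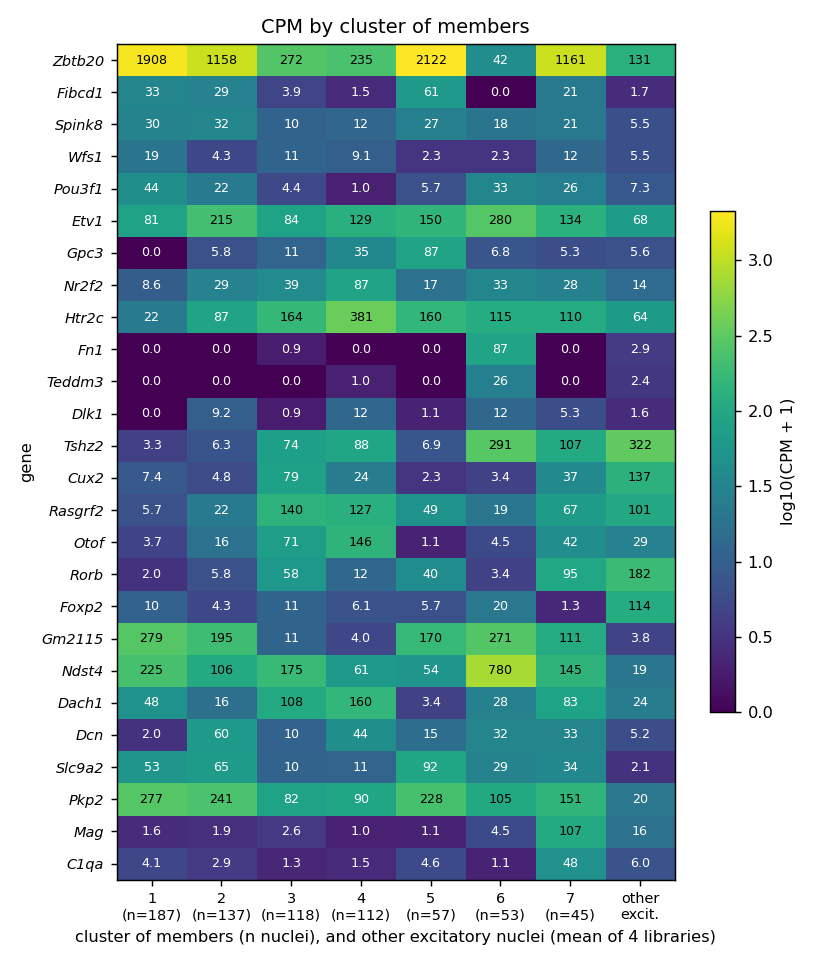
CPM of region markers, rule genes and glial markers in each of the 7 clusters of members, with the number of nuclei below each column, beside the mean of other excitatory nuclei over 4 libraries; colour gives log10(CPM + 1). Zbtb20, Fibcd1 and Gm2115 are high in clusters 1, 2, 5 and 7, and Gm2115 also in cluster 6. Dach1 and Rasgrf2 are high in clusters 3 and 4, Fn1 in cluster 6 and Mag in cluster 7.

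The mix of clusters was not the same in each library. Clusters 1, 2 and 5 held 45 of 110 members in 3M-1 (40.9%), 21 of 85 in 3M-2 (24.7%), 117 of 228 in 6M-1 (51.3%) and 198 of 286 in 6M-2 (69.2%). Clusters 3 and 4 held 62 (56.4%), 60 (70.6%), 77 (33.8%) and 31 (10.8%). As a share of excitatory nuclei, clusters 1, 2 and 5 went from 1.40% and 0.461% at 3 months to 3.56% and 6.14% at 6 months, whereas clusters 3 and 4 were 1.92% and 1.32% at 3 months and 2.34% and 0.962% at 6 months. Of the difference of 5.26 points between the ages, 3.92 points were in clusters 1, 2 and 5, 0.786 in cluster 6, 0.524 in cluster 7 and 0.0296 in clusters 3 and 4. Cluster 2 came mostly from 1 library, with 6, 5, 23 and 103 nuclei, and cluster 6 almost only from the 6-month mice, with 1, 0, 15 and 37 nuclei. No test is given for these counts, since genes that form the clusters may themselves differ between the ages.

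Zbtb20 was also read in single nuclei, without clustering. Members with at least 500 CPM of Zbtb20 numbered 52 of 110 in 3M-1, 22 of 85 in 3M-2, 141 of 228 in 6M-1 and 185 of 286 in 6M-2, or 47.3%, 25.9%, 61.8% and 64.7%. Of the other excitatory nuclei, 5.14%, 5.64%, 11.4% and 10.8% reached this level. Between 400 and 600 CPM, near this limit, lay 2, 1, 20 and 12 members. The share of Zbtb20-rich nuclei was therefore also larger at 6 months outside the members.

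The receptor genes of members differed from those of other excitatory nuclei in level and in composition. Among 14 subunit genes of AMPA, NMDA and kainate receptors with at least 10 CPM, 6 were higher in members in all 4 mice and 5 were lower. Against the nuclei without Syt6 and Rspo1 the counts were 8 higher and 3 lower, since Gria2 and Grik5 were then also higher in all 4 mice, and Grin1 and Grik4 were no longer lower in all. Over all 9845 genes, 18.3% were higher and 26.2% lower in that comparison. Gria1, which encodes the AMPA receptor subunit GluA1, had 2198, 1803, 2032 and 2516 CPM in members against 848, 762, 635 and 761 CPM, a median log2 ratio of 1.53. Gria4 was on the other side, with 378, 384, 452 and 370.0 CPM against 767, 717, 971 and 845 CPM and a median log2 ratio of −1.06. For both genes the classes did not overlap. Unlike the region markers, Gria1 was high in every cluster, from 1244 CPM in cluster 3 to 2879.6 CPM in cluster 1.

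The NMDA receptor genes Grin2a, Grin2b and Grin3a were higher in all 4 mice, with median log2 ratios of 0.61, 0.46 and 1.02, and the kainate receptor gene Grik3 was lower, with −1.97. Grik3 had 54.5, 39.0, 41.0 and 53.9 CPM in members against 184, 157, 157 and 218 CPM. Gabra2, the gene of the α2 subunit of GABA-A receptors, had 486, 730.0, 617 and 633 CPM against 201, 295, 252 and 220.4 CPM. Its median log2 ratio was 1.30, and it was above the other excitatory nuclei in each of the 7 clusters. Gabra5, the α5 subunit gene known for extrasynaptic receptors of the hippocampus, was highest in clusters 1, 2 and 5, with 156, 125.2 and 179 CPM against 45.4 and 36.4 CPM in clusters 3 and 4.

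**Figure D4:**
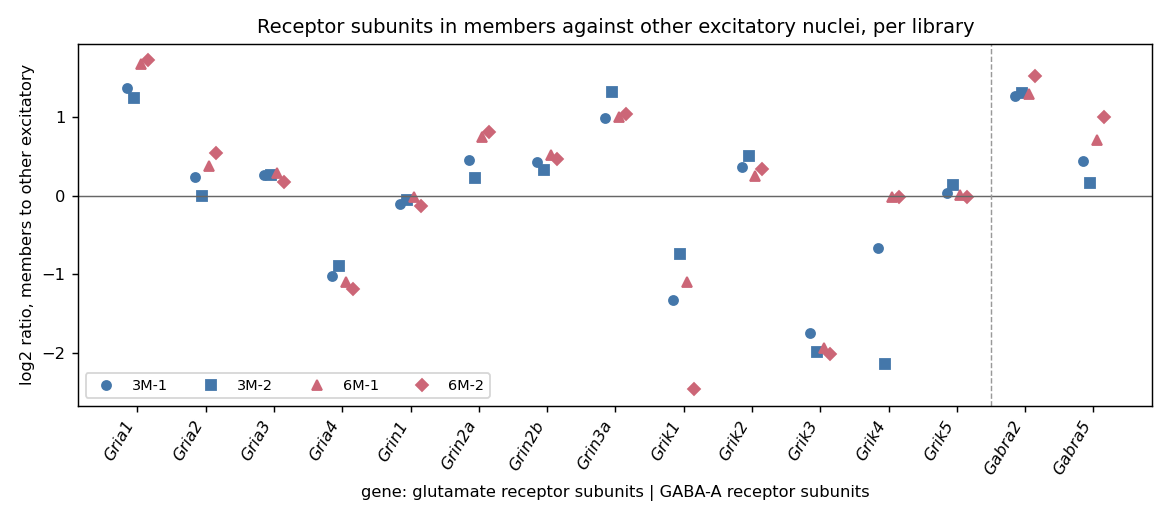
Log2 ratio of CPM in members to CPM in other excitatory nuclei for glutamate receptor subunit genes and for Gabra2 and Gabra5, 1 symbol per library (blue, 3 months; red, 6 months). Gria1, Grin3a and Gabra2 lie above 0 and Gria4 and Grik3 below 0 in all 4 libraries.

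Genes related to the rule genes were not all higher with them. The counts of these lists stand beside 18.7% of all genes higher and 26.8% lower in all 4 mice. Of 17 other genes of heparan sulfate synthesis or desulfation, 2 were higher in members in all 4 mice and 10 were lower. The 10 include the sulfatase genes Sulf1 and Sulf2. Ndst3, the paralog of Ndst4, had 242, 193, 327 and 492 CPM against 108, 142, 147 and 149 CPM, a median log2 ratio of 1.16. The 3-O-sulfotransferase genes Hs3st2 and Hs3st5 were lower, with median log2 ratios of −1.48 and −2.07, as was Ext1 (−0.65), a polymerase subunit that builds the chain. Of 7 other sodium/proton exchanger genes with at least 10 CPM, 4 were higher in all 4 mice and none was lower in all. Against the nuclei without Syt6 and Rspo1, Slc9a5 was lower in all 4 mice, beside 26.2% of all genes. Slc9a4, an exchanger of the same family as Slc9a2, had 9.67, 2.94, 9.16 and 23.6 CPM against 0.746, 0.840, 2.02 and 2.74 CPM, and was highest in clusters 2 and 5 (21.2 and 30.9 CPM). None of the 10 small leucine-rich proteoglycan genes other than Dcn reached 10 CPM as a mean. Epyc, the most abundant of them in members, had 1.53, 4.41, 10.6 and 17.8 CPM against 0.206, 1.16, 0.780 and 1.81 CPM. For the desmosomal and armadillo genes, Pkp4 was higher in all 4 mice with a median log2 ratio of 0.58.

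Immediate early genes and glutathione genes were more often lower than higher in members. Their counts stand beside 26.8% of all genes lower and 18.7% higher in all 4 mice. Of 14 immediate early genes with at least 10 CPM, 8 were lower in all 4 mice and Jun was higher, and against the nuclei without Syt6 and Rspo1 10 were lower in all 4. Egr1 had 7.13, 19.8, 19.8 and 16.5 CPM in members against 22.3, 47.8, 39.5 and 47.2 CPM, and Nr4a1 had 34.6, 52.2, 58.1 and 45.9 CPM against 99.1, 98.8, 83.5 and 106 CPM. Within members both were highest in cluster 1, at 29.1 and 76.6 CPM. Of 10 genes of glutathione metabolism and the Nrf2 response, 5 were lower in all 4 mice, among them Gsr (glutathione reductase, −0.47) and Gpx4 (glutathione peroxidase 4, −0.46), and Slc1a1, the neuronal transporter that takes up cysteine, was higher (0.37). Of 4 cell death genes with at least 10 CPM, 2 were lower in all 4 mice and Ripk1 was higher, and against the nuclei without Syt6 and Rspo1 only Bcl2 was lower in all 4. The anti-apoptotic gene Bcl2 had 37.2, 34.6, 32.1 and 24.7 CPM against 79.4, 83.9, 69.3 and 96.7 CPM. All 3 heat shock genes at this level were lower in all 4 mice, and so were the 6 oligodendrocyte genes. The 6 astrocyte genes, led by Slc1a2, summed to 131, 169, 117 and 103 CPM in members and to 342, 425, 471 and 477 CPM in other excitatory nuclei. Only Slc1a2 of this list was lower in all 4 mice, and the list's median log2 ratio was 0.19. Slc1a3 had 32.6, 51.5, 19.5 and 11.1 CPM in members, against 11.9, 13.2, 13.9 and 18.6 CPM in the nuclei without Syt6 and Rspo1. The part of RNA from glia in the ratios of this paragraph was not tested.

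The members of 3-month and 6-month mice were compared to find genes that change with age in these nuclei. No gene passed at an adjusted p of 0.05 among 12686 tested (0.0%; edgeR, quasi-likelihood test, p-values adjusted after Benjamini and Hochberg, 2 mice against 2). At an unadjusted p of 0.05 there were 1314 genes, and DESeq2 called 87 of 9862 tested. With the batch number as a block, edgeR again called 0 genes. None passed either among the members of clusters 1, 2 and 5, of cluster 1, or of clusters 3 and 4 taken alone. With 1 library left out, edgeR called 84 genes without 3M-1, 74 without 6M-1, 9 without 6M-2 and 0 without 3M-2. P-values here measure the spread between 2 mice per age.

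The 3 genes with the smallest p-values in each direction did not pass (edgeR, adjusted p = 0.148 for each). Klhl1, an actin-binding Kelch gene, had 2.04 and 2.21 CPM at 3 months and 17.5 and 25.0 CPM at 6 months (log2 fold change 3.31 ± 0.43, SE), and was at 118 CPM in cluster 6 and at most 15.4 CPM in the others. Apoe, which encodes a lipid carrier made mainly by astrocytes and microglia, had 13.2 and 16.2 CPM at 3 months and 45.5 and 47.5 CPM at 6 months, and was at 206 CPM in cluster 7. In other excitatory nuclei Apoe had 22.0, 33.4, 54.4 and 63.4 CPM. On the lower side, Cdh4, which encodes R-cadherin, had 259 and 387 CPM at 3 months and 109 and 104 CPM at 6 months (log2 fold change −1.59 ± 0.21), with 267 and 351 CPM in clusters 3 and 4. Within clusters 3 and 4 it had 357 and 444 CPM at 3 months and 199.6 and 198 CPM at 6 months. Rilpl1, with a log2 fold change of −1.61, had 84.5, 85.3, 31.5 and 24.5 CPM in members, 111, 96.6, 49.3 and 47.6 CPM within clusters 3 and 4, and 69.8, 59.6, 31.6 and 40.6 CPM in other excitatory nuclei. Gm13963 (log2 fold change 1.33) had 30.04, 29.4, 72.2 and 78.2 CPM in members and 37.7, 50.1, 104.8 and 73.9 CPM in other excitatory nuclei. Kcng1, a potassium channel subunit gene (log2 fold change −1.60), had 50.9, 62.5, 17.8 and 19.4 CPM in members and 19.98, 15.9, 8.55 and 14.0 CPM in other excitatory nuclei. Outside the members, Cdh4 had 93.3, 125.3, 66.3 and 49.4 CPM and Klhl1 had 11.2, 10.7, 13.4 and 11.1 CPM. For 5 of these 6 genes, all but Klhl1, both 6-month libraries lay on the same side of both 3-month libraries in other excitatory nuclei as in members. The part of the cluster mix in these values was not tested apart from the fits within clusters.

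Among the region markers, Zbtb20 and Wfs1 had opposite signs, and neither passed. Wfs1 had a log2 fold change of −1.55 ± 0.32 (SE; edgeR, adjusted p = 0.183). Zbtb20 had a log2 fold change of 1.22 ± 0.29 in all members (edgeR, adjusted p = 0.229), and 0.51 in clusters 1, 2 and 5 alone, where the fit gave an adjusted p of 0.789. In cluster 1 its levels were 1625 and 1316 CPM at 3 months and 2026 and 2067 CPM at 6 months. Gsdme, which encodes gasdermin E, a protein that forms membrane pores after cleavage, had 74.3 and 65.4 CPM at 3 months and 169.5 and 152 CPM at 6 months in members (log2 fold change 1.19 ± 0.18, edgeR, adjusted p = 0.148). In cluster 1 it had 111 and 164 CPM at 3 months and 227 and 147 CPM at 6 months, so that the ages overlapped there. In clusters 3 and 4 it had 38.9 and 45.03 CPM, then 89.4 and 86.3 CPM, and in other excitatory nuclei 111, 142, 157 and 141 CPM. Gclc had a log2 fold change of −0.10 ± 0.20 (edgeR, adjusted p = 0.911).

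No gene of the lists passed in members. The list medians of the log2 fold change stood beside a median of 7e-04 over all genes tested. For the 5 CA1 genes the median was 0.72, for the 5 upper-layer genes −0.92, and for the 7 deep-layer genes 0.85. The 6 oligodendrocyte genes had a median of 2.14, and 6 of 6 were positive. Their summed level was 84.5, 118, 197 and 217 CPM in members, and 196, 203, 342 and 392 CPM in other excitatory nuclei, with Mbp the most abundant. Cluster 7, with 1343 CPM of the oligodendrocyte genes and 38 of 45 nuclei called doublets, held 2, 4, 19 and 20 nuclei per library. The 6 microglial genes, led by P2ry12, had 75.9, 140.4, 149 and 134 CPM in members. Every gene of both glial lists had at least 1 UMI in members, and the part of glial RNA in these values was not tested. Immediate early genes (15 tested, median 0.18), glutathione and Nrf2 genes (13 tested, 0.07) and AMPA, NMDA and kainate receptor genes (14 tested, 0.01) stood near the median of all genes.

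In the other excitatory nuclei, 6 of 19281 genes passed (0.0311%; edgeR, adjusted p under 0.05), 5 higher (0.0259%) and 1 lower (0.00519%) at 6 months. With the batch number as a block 108 passed (0.56%), 95 higher (0.493%) and 13 lower (0.0674%). Without 3M-2 the count was 2513, without 3M-1 637 and without 6M-1 39. The higher genes were Gm21860, C4b (complement component 4), St18 (an oligodendrocyte transcription factor), Neat1 and C030029H02Rik, and the lower gene was Zrsr1. Zrsr1, a paternally expressed splicing factor gene, fell from 25.9 and 30.4 CPM to 8.63 and 8.97 CPM (log2 fold change −1.71 ± 0.18, edgeR, adjusted p = 0.0420). Without 6M-2, the adjusted p (edgeR) was 0.0675 for Zrsr1, 0.0750 for St18 and 0.105 for both Neat1 and C030029H02Rik, so these calls were lost. That fit has 1 mouse at 6 months, which is assumed to vary like the 3-month mice, and the log2 fold changes were −1.79 for Zrsr1, 1.34 for St18, 1.30 for Neat1 and 1.66 for C030029H02Rik. In members Zrsr1 had 20.9 and 26.5 CPM at 3 months and 8.31 and 6.69 CPM at 6 months. St18 had 3.06 and 11.8 CPM, then 35.8 and 41.2 CPM, in members, of which cluster 7 had 274 CPM.

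For 1 gene of 18742 the age difference was not the same in members and in other excitatory nuclei (0.00534%; edgeR, test of the class by age term with the mouse as a block). This was Gfra1, which encodes a receptor for GDNF (chromosome 19, 58235604 to 58455909). It had 11.7 and 5.88 CPM at 3 months and 31.2 and 61.1 CPM at 6 months in members, and 27.8, 29.7, 20.2 and 35.1 CPM in other excitatory nuclei. The log2 difference between the age effects was 2.41 ± 0.27 (SE, adjusted p = 0.0214). In the other excitatory nuclei the ages overlapped, whereas in members they did not. At an unadjusted p of 0.05 there were 1507 genes, and DESeq2 called 33 of 3943 tested. With the batch number added, 314 passed in edgeR (1.68%), 151 higher (0.806%) and 163 lower (0.87%). The count was 488 without 6M-1, 91 without 6M-2, 23 without 3M-1 and 0 without 3M-2.

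Gfra1 was itself unequal between the clusters, at 67.4, 88.2 and 94.8 CPM in clusters 2, 5 and 6, which came mostly from 6-month mice, and 14.3, 14.8 and 5.56 CPM in clusters 1, 3 and 4. Within cluster 1 it had 3.88 and 6.09 CPM at 3 months and 2.17 and 35.7 CPM at 6 months, and the log2 difference of 2.11 had an adjusted p of 0.967 (edgeR). Within clusters 3 and 4 it had 8.10, 4.69, 8.48 and 28.3 CPM, with a log2 difference of 1.45 and an adjusted p of 0.263 (edgeR). Without 3M-2, the log2 difference was 2.06 with an adjusted p of 0.923. The next genes by p did not pass: 4933413L06Rik and Gm48003 were on the higher side, with log2 differences of 1.16 and 1.33, and Dock10, Ptpro and Tmem164 on the lower side, with −1.38, −1.28 and −1.45. Ptpro, a receptor tyrosine phosphatase gene, had 86.9 and 169.7 CPM in clusters 3 and 4 and 9.84 CPM in cluster 1.

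**Figure D5:**
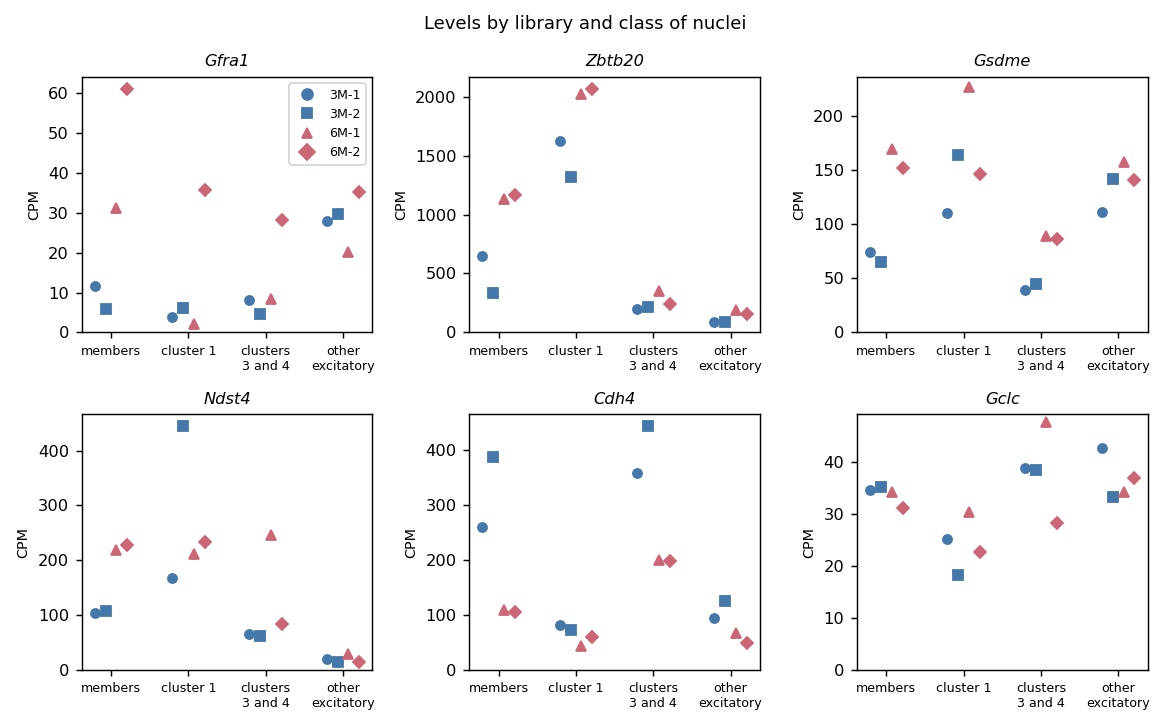
CPM of 6 genes in all members, in cluster 1, in clusters 3 and 4 and in other excitatory nuclei, 1 symbol per library (blue, 3 months; red, 6 months). For Gfra1, the gene that passed the test of a difference in age effect, both 6-month libraries are above both 3-month libraries in all members but not in cluster 1, where 6M-1 is at 2.17 CPM.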

How the data were processed

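The deposited matrices give unnormalized UMI counts of 32285 genes in each nucleus. They were made by the authors with Cell Ranger 7.0.0, per the file headers, and the submitters' processing notes name mm10 and Seurat. No deposited annotation of nuclei was used. Members and gene lists were chosen with earlier results of these data known. Nuclei above 7000 genes or 1% mitochondrial UMIs were left out. UMIs were summed per mouse and class. CPM are relative to the class's total, and log2 ratios per mouse used a prior count of 0.5. Ages were compared with edgeR 4.0.16 in R 4.3.3 (TMM, filterByExpr, quasi-likelihood test, Benjamini-Hochberg adjustment over all genes tested, threshold 0.05), which was tested on simulated data. DESeq2 1.42.0, RLE normalization, no filter, other gates, thinning to 5000 UMIs and leaving out doublets or each replicate were alternatives, as was, after seeing the data, leaving Syt6- and Rspo1-positive nuclei out of the comparison. Members were clustered with leidenalg 0.10.2 (1500 variable genes, 15 components, 15 neighbours, resolution 0.5). A cluster was named where 3 genes of a list were among its 50 leading genes against other excitatory nuclei. Scrublet (through scanpy 1.11.5) called doublets. Shares were compared with exact permutation tests, and 95% Wilson intervals cover counting error only. Genes named are those of the lists, leading cluster genes, up to 8 genes per direction that passed each test (or the 3 with the smallest p where fewer than 3 passed), and the 12 highest and 12 lowest ratios of members to other excitatory nuclei among genes with at least 50 CPM in the higher class in every mouse. All 19 genes looked up were matched by identifier to GENCODE M21 (GRCm38), the source of coordinates. The batch number equals the replicate number of the sample titles, 1 or 2 at both ages, and is the source of the pairing. The deviations of same-numbered libraries had correlations across genes of −0.19 in members and −0.11 in other excitatory nuclei. Some genes of the lists are not reported here.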

Additional observations from a re-analysis of the deposited data

Results flagged for a closer look

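Gfra1 stood out because its age effect differed between members and other excitatory nuclei by the class by age term (log2 difference 2.41 ± 0.27, SE; edgeR, adjusted p = 0.0214, 1 of 18742 genes tested). It was higher at 6 months in 4 of 4 pairs of mice in members, and over the alternatives the log2 difference was between 1.45 and 3.35 and the adjusted p reached 0.967 in cluster 1. The share of clusters 2, 5 and 6, in which Gfra1 was highest, was larger at 6 months, and its part in the result was not tested beyond the fits within clusters.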

How the results depend on the processing

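With 2 mice per age, the count of genes called depended strongly on the processing. The cause was not tested. In members, 0 genes were called with edgeR, 87 with DESeq2, 540 without a filter on low counts, 6 with at least 5 rule genes and 0 to 84 with a replicate left out (84 without 3M-1, 74 without 6M-1, 9 without 6M-2). In other excitatory nuclei, 6 were called with edgeR, 117 with DESeq2, 94 without a filter, 108 with the replicate block and 7 to 2513 with a replicate left out (2513 without 3M-2, 637 without 3M-1, 39 without 6M-1). For the difference of age effects, 1 gene was called with edgeR, 33 with DESeq2, 391 without a filter, 314 with the replicate block, 185 with at least 5 rule genes, 12 in cluster 1, 66 in clusters 3 and 4, and 0 to 488 with a replicate left out (488 without 6M-1, 91 without 6M-2, 23 without 3M-1, 0 without 3M-2). Pairing the numbers crosswise, chosen after seeing the data, called 302, 8 and 563 genes. The replicate block called 0 genes in members. RLE normalization gave 0, 7 and 1. The number of genes tested also differed between edgeR, DESeq2 and the fit without a filter. It was 12686, 9862 and 22529 in members, and 19281, 16882 and 26728 in other excitatory nuclei. For the difference of age effects it was 18742, 3943 and 26831. The share of members was larger at 6 months under every alternative, by 2.20 points of all nuclei to 6.35 points with at least 3 rule genes, by 3.75 points with at least 5, by 2.76 points after thinning to 5000 UMIs, and by 4.29 to 6.23 points with a replicate left out. Of the 6 CA1 and Zbtb20 markers, 5 had a mean log2 ratio above 1 in members, and 1 in clusters 3 and 4. The age effect of Gclc was on the other side of 0 in clusters 1, 2 and 5 (0.23), in cluster 1 (0.23) and in clusters 3 and 4 (0.0515). None of these passed the threshold. Ndst4 was used to choose members, so its age effect is a description without a test. It was on the other side of 0 in clusters 1, 2 and 5 (−0.53) and in cluster 1 (−0.31). Among 319 refits of single-gene age effects, which include the rule genes Ndst4 and Gm2115, 5 changed sign, 7 lost and 95 gained the threshold. Of 140 refitted ratios of members to other excitatory nuclei, 32 moved by more than the SD between mice. Splits by cluster were chosen after seeing the data, and clustering at resolutions of 0.3 and 0.8 gave 5 and 10 clusters. Depth limits genes at a few CPM: 3M-2 held 1360245 UMIs in members.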

Other observations

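Members of 3M-2 had the smallest part of Zbtb20-rich nuclei (25.9%) and the lowest Gm2115 (33.8 CPM), Fibcd1 (2.21 CPM) and Slc9a2 (10.3 CPM) of the 4 mice, while the upper-layer genes were summed at 432 CPM there against 253, 254 and 109 CPM in the others. Within cluster 1, Gm2115 differed much less, with 242, 238, 333 and 251 CPM. Wfs1 was also unequal between the mice within cluster 1, with 34.9, 60.9, 13.0 and 7.15 CPM. In the subiculum-like cluster 6, Rspo2 had 160.2 CPM and Ndst3 had 704 CPM, against 17.2 and 423 CPM in cluster 1. Cluster 4 had 1073 CPM of Nkain3, a subunit gene that interacts with the sodium pump, against 449 CPM in cluster 1.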
